A study of Mus musculus with 2 samples.

Results

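The genes described here encode 10 histone acetyltransferases other than KAT8: Kat2a, Kat2b, Hat1, Naa60, Kat5, Kat6a, Kat6b, Kat7, Ep300 and Crebbp. They were listed by name and are 10 of 21883 protein-coding genes of a RefSeq table. Their peaks of histone H4 lysine 16 acetylation (H4K16ac) were taken from the gene and 20 kb on each side, which gave 71 of 58229 peaks in the wild-type list and 53 of 55149 in the KAT8-cKO list. The mark was mapped by CUT&Tag, in which an antibody brings a transposase to the modified histone so that the DNA beside it is tagged and sequenced. Both libraries came from primary mouse macrophages grown out of bone marrow with recombinant M-CSF (20 ng/ml), and both had received R848 (100 ng/ml), an agonist of the endosomal receptor TLR7, for 2 h before harvest. One library had the genotype WT and the other KAT8-cKO, with 1 library of each and no untreated library. The strain, the age of the animals, the Cre driver and how completely KAT8 was lost are left unstated by the labels. With 1 library per genotype no value below has a replicate error and no test between the genotypes was possible.

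Histone acetyltransferases move the acetyl group of acetyl-CoA onto lysines of the histone tails, a change that loosens chromatin and is read by bromodomain proteins. They fall into families: the GNAT enzymes (Kat2a, Kat2b, Hat1 and the more distant Naa60), the MYST enzymes (Kat5, Kat6a, Kat6b and Kat7, to which KAT8 itself belongs) and the pair p300 and CBP (Ep300 and Crebbp). KAT8 is the main writer of H4K16ac, and the question here is where that mark lies on the genes of the other enzymes. The data show the mark on these genes and measure neither their expression nor the activity of the enzymes.

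The sequences before the start sites of 6 members are shown because the peaks sat differently on them, and because these are the bases that the peak positions below refer to. Each is the 250 bases before a RefSeq start (GRCm38.p6, the assembly of mm10), 5′ to 3′ on the gene's strand. Capitals mark matches, on either strand, to 5 short motifs: the GC box GGGCGG, the CCAAT box CCAAT, the ETS core CCGGAAGT, the E-box CACGTG and the cyclic AMP response element TGACGTCA.
Kat5, chr19:5610095-5610344, minus strand, all inside a wild-type peak and outside any KAT8-cKO peak: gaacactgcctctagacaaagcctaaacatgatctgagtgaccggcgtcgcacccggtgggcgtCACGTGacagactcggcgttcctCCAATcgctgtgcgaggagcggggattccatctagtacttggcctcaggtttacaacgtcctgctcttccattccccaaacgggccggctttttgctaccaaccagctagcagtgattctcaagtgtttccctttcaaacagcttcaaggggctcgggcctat
Naa60, chr16:3884369-3884618, plus strand, all inside a peak of each list: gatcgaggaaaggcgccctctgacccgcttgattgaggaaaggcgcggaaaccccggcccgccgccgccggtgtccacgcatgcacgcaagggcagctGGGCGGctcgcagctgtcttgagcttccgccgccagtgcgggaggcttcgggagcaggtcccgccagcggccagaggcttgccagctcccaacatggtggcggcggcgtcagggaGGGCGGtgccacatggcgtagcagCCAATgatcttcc
Ep300, chr15:81585964-81586213, plus strand, all inside a peak of each list: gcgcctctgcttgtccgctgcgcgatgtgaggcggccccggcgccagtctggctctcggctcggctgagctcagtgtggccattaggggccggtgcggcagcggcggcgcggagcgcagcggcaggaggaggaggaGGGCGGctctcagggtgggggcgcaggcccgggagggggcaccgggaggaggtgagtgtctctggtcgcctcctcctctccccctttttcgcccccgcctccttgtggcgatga
Kat7, chr11:95310247-95310496, minus strand, 240 bases inside the wild-type peak and all 250 inside the KAT8-cKO peak: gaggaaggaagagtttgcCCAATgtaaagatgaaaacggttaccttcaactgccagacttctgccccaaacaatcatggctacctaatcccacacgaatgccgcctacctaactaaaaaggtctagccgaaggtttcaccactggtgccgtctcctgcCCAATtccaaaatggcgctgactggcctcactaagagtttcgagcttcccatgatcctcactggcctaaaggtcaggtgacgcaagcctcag
Crebbp, chr16:4213405-4213654, minus strand, free of peaks, with a peak on each side in both lists: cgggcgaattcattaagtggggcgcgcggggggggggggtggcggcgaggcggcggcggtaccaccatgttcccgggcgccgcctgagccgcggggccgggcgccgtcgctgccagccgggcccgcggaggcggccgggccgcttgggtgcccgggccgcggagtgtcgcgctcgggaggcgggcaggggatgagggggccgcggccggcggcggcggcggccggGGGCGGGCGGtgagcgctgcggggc
Kat2a, chr11:100712468-100712717, minus strand, with no peak within 1 kb of the start in either list: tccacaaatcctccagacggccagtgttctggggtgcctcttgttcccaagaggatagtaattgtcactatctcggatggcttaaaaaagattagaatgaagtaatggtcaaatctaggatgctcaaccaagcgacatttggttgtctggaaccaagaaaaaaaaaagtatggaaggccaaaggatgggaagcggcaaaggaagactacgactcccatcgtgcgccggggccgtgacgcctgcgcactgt

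These windows differ widely in base composition. CpG dinucleotides numbered 44 at Crebbp, 25 at Ep300 and at Naa60, 15 at Kat5, 11 at Kat2a and 8 at Kat7, against a median of 6 over 32851 windows of the same kind. Crebbp held 2 GC boxes, which overlap each other, Naa60 held 2 and Ep300 1, and none was found in the printed windows of Kat5, Kat7 and Kat2a. Over all windows 32.7% hold a GC box, 33.8% a CCAAT box, 6.02% an E-box, 2.88% the ETS core and 1.55% the cyclic AMP response element. CCAAT boxes lay at Kat7 (2), Naa60 (1) and Kat5 (1), and the Kat5 window also held an E-box. Of the 5 motifs none was found at Kat2a. The printed windows that lay wholly or almost wholly inside peaks of both lists thus ran from 8 to 25 CpGs, and the most CpG-rich one, at Crebbp, was free of peaks. The window before the second Kat5 start, at chr19:5609745-5609994 and not printed, held 3 GC boxes and 24 CpGs and lay wholly inside the same wild-type peak. The Hat1 window, also not printed, had 27 CpGs, with 0 bases inside wild-type and 200 inside KAT8-cKO peaks. It held 1 GC box, 1 CCAAT box, 1 E-box and 1 ETS core. The windows of Kat6b, which overlap each other, had 27 and 29 CpGs and 8 GC boxes each. They had 0 bases inside wild-type and 2 and 17 inside KAT8-cKO peaks. The windows of Kat2b had 6 and 5 CpGs and were free of peaks, and the first held 1 CCAAT box. A match is a string of letters and was not tested as a binding site.

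The peak lists are described briefly because every value rests on them. The folds over background, −log10 q-values and peak positions are those of the authors' peak caller, made separately for each library, so they describe and rank peaks within a list and do not measure a change between the lists. Many peaks are weak: 46.9% of wild-type and 47.0% of KAT8-cKO peaks had a q-value under 0.05. The commonest pair of values, a fold of 2.69 at a −log10 q of 0.774, was shared by 4733 wild-type peaks, and 4984 KAT8-cKO peaks had a fold of 2.78 at 1.01, so weak values come in steps. Read totals are not given, so depth is unknown, and a missing peak means that none was called. As a check of the cell type, 7 of 10 macrophage markers had a peak at a gene end in wild type and 6 in the KAT8-cKO list, Lyz2 in neither. Of all protein-coding genes 46.8% and 43.3% had one, so the macrophage counts alone say little about the cell type. In each list 0 of 4 B cell and 0 of 4 neutrophil markers had one. So did 1 of 5 T cell (Cd247), 1 of 4 erythroid (Klf1) and 1 of 3 stromal (Col1a1) markers. Kat8 had a weak end peak in wild type alone, and this is no measure of the deletion.

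Most of the 10 acetyltransferase genes carried H4K16ac at an end. A gene had an end peak, and is called marked, where 1 kb or less separated a peak from its annotated start or 3′ end. By this rule 8 of 10 genes were marked in wild type and 7 of 10 in KAT8-cKO, where 46.8% and 43.3% of all protein-coding genes were. Both lists marked Hat1, Kat6a, Kat6b, Kat7, Ep300 and Crebbp, 6 of 10 against 35.8% of all genes. Kat2a and Kat2b were marked in wild type only, as were 11.1% of all genes. Naa60 was marked in KAT8-cKO only (7.52% of all genes) and Kat5 in neither (45.7%). With 10 genes, 1 gene more or less moves such a share by more than the smallest background, 7.52%. No member count is therefore read as particular to the family.

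The choice of end changed the class of 3 genes. For 9 of the 10 genes the RefSeq promoter table gives start sites, and some lie far inside the annotated gene. Counted within 1 kb of such a start, an alternative added after the data were seen, 6 of 9 genes were marked in both lists (36.4% of 17491 genes with a start), 2 in wild type only (10.3%), 0 in KAT8-cKO only (6.29%) and 1 in neither (47.0%). Naa60 moved from KAT8-cKO only to both lists, Kat5 from neither to wild type only, and Kat2a from wild type only to neither. Kat2b stayed in wild type only under both rules, and Hat1, Kat6b, Kat7, Ep300 and Crebbp stayed in both lists. Kat6a has no entry in the promoter table.

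**Figure D1:**
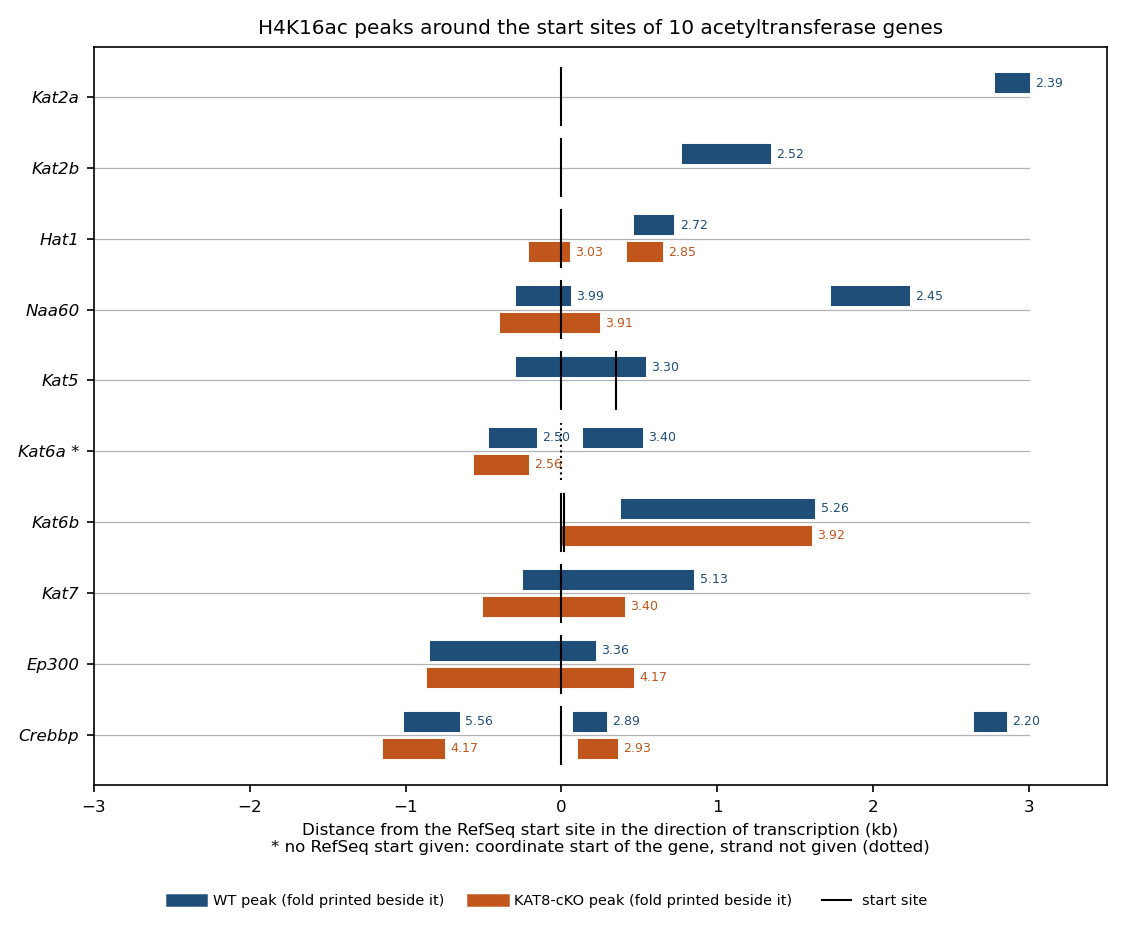
Peaks of both lists within 3 kb of the start site of each gene, in kb along the direction of transcription, with the fold over background printed beside each peak (blue, WT; orange, KAT8-cKO; 1 library each). Peaks of both lists reach to within 1 kb of the start at Hat1, Naa60, Kat6b, Kat7, Ep300 and Crebbp, a wild-type peak alone covers both starts of Kat5, and the nearest Kat2a peak is 2786 bp away.

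Kat2a and Kat2b encode GCN5 and PCAF, the alternative catalytic subunits of the SAGA and ATAC coactivator complexes. Kat2a (chromosome 11, 100704746 to 100712485, minus strand) had no peak within 1 kb of its start in either list. Its single end peak, in wild type, lay at the 3′ end with a fold of 2.40 at a −log10 q of 1.09, and was also within 1 kb of an end of the neighbouring gene Dhx58. A body peak in wild type had a fold of 2.39 at a −log10 q of 0.962, and KAT8-cKO had no end or body peak at Kat2a. None of the 4 wild-type and 2 KAT8-cKO peaks around Kat2a overlapped, and none had a q-value under 0.05. Of all peaks as weak as that, 18.3% in wild type and 21.7% in KAT8-cKO were overlapped. Kat2b (chromosome 17, 53566774 to 53672721, plus strand) had a weak wild-type peak from 777 to 1339 bp after its first start, with a fold of 2.52 at a −log10 q of 0.774. That peak was 974 bp from the annotated gene start and so just inside the 1 kb window. The strongest peak inside Kat2b was shared: it lay 3337 bp after the second start in wild type, at chr17:53587463-53587716 (fold 3.65, −log10 q 3.12) and 3127 bp after it in KAT8-cKO, at chr17:53587253-53587754 (3.07 and 1.71). The pair thus had no start-site peak with a q-value under 0.05 in either list.

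Hat1 encodes an acetyltransferase of newly made, not yet assembled histone H4. Its gene (chromosome 2, 71389260 to 71441622, plus strand) had 1 end peak in wild type and 2 in KAT8-cKO, all at the start. The wild-type peak, 472 to 718 bp after the start, had a fold of 2.72 at a −log10 q of 1.07. The KAT8-cKO peak that overlapped it had a fold of 2.85 at a −log10 q of 1.41. A further KAT8-cKO peak spanned the start itself, from 200 bp before to 49 bp after it, with a fold of 3.03 at a −log10 q of 1.80, and no wild-type peak overlapped it. Hat1 is therefore a gene at which peaks at the start passed a q-value of 0.05 in the KAT8-cKO list and not in the wild-type list.

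Naa60 encodes an acetyltransferase of the Golgi that acts on the N-termini of membrane proteins and has also been described as a histone H4 acetyltransferase (HAT4). Its gene (chromosome 16, 3872496 to 3904781, plus strand) had nearly equal peaks in both lists over the RefSeq start, which lies inside the annotated gene. In wild type the peak ran from 286 bp before to 52 bp after the start with a fold of 3.99 at a −log10 q of 4.17. In KAT8-cKO it ran from 390 bp before to 241 bp after with a fold of 3.91 at a −log10 q of 4.07. The same peaks lay within 1 kb of an end of Zfp597, a gene on the opposite strand, so they cannot be assigned to either gene. At the annotated gene start KAT8-cKO had a pair of peaks, each with a fold of 3.20 at a −log10 q of 1.87, which were also within 1 kb of the end of Zfp174, and a weaker one (2.32 and 0.663) at the 3′ end. No wild-type peak overlapped any of these, and the nearest wild-type peak there, with a fold of 3.42 at a −log10 q of 2.17, stopped 1376 bp from the annotated end.

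Kat5 encodes TIP60, the catalytic subunit of the NuA4/TIP60 complex, which acetylates histones H4 and H2A and takes part in DNA repair. Kat5 (chromosome 19, 5603014 to 5611556, minus strand) had a start-site peak in wild type and none in KAT8-cKO. The wild-type peak at chr19:5609556-5610380 was 825 bp wide, covered both RefSeq starts, and had a fold of 3.30 at a −log10 q of 3.25. It ended 1176 bp from the annotated gene end and was classed as a body peak for that reason. A second wild-type body peak had a fold of 2.67 at a −log10 q of 1.77. The nearest KAT8-cKO peak to either start was 20689 bp away, the only KAT8-cKO peak within 20 kb of the gene, with a fold of 2.92 at a −log10 q of 1.37. Kat5 thus had 5 wild-type peaks and 1 KAT8-cKO peak with no overlap between them. Most peaks of the lists also had no counterpart: 33.2% of all wild-type and 35.6% of all KAT8-cKO peaks were overlapped. The Kat5 start-site peak was among the strongest member peaks without a counterpart. Of all wild-type peaks with a q-value under 0.05 and a −log10 q under 5, as it had, 42.1% were overlapped.

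Kat6a and Kat6b encode MOZ and MORF, paralogous enzymes that acetylate histone H3 together with BRPF scaffold proteins. Kat6b (chromosome 14, 21499216 to 21672478, plus strand) had the member peaks with the highest −log10 q at a gene end in each list. The wild-type peak at chr14:21500159-21501393 was 1235 bp wide and lay 374 to 1608 bp after the second of its neighbouring starts. Its fold was 5.26 at a −log10 q of 13.2, which placed Kat6b in the top 2.89% of the 10246 genes with a wild-type end peak. The KAT8-cKO peak at chr14:21499768-21501369 was 1602 bp wide, with a fold of 3.92 at a −log10 q of 6.23, in the top 8.50% of 9471 genes. Both peaks covered the stretch after the starts, and the KAT8-cKO peak reached to the starts themselves.

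Kat6a (chromosome 8, 22859442 to 22943259) had weaker end peaks, which all lay at its lower-coordinate end. Peaks just outside that end overlapped between the lists, with a fold of 2.50 at a −log10 q of 0.719 in wild type and 2.56 and 0.663 in KAT8-cKO. A stronger wild-type peak just inside the gene, at chr8:22859586-22859957, had a fold of 3.40 at a −log10 q of 2.70, and no KAT8-cKO peak overlapped it. That peak was also within 1 kb of an end of the noncoding gene Gm46036. Kat6a was therefore marked in both lists through its weaker peak, and no KAT8-cKO peak around it had a q-value under 0.05.

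Kat7 encodes HBO1, which acetylates histones H3 and H4 with JADE or BRPF partners and is known for its part at replication origins. Kat7 (chromosome 11, 95271853 to 95310246, minus strand) had an end peak over its start in both lists. In wild type it was 1087 bp wide, from 240 bp before to 846 bp after the start, with a fold of 5.13 at a −log10 q of 6.80 (rank 1639 of 10246 genes with an end peak). In KAT8-cKO it was 898 bp wide, from 499 bp before to 398 bp after, with a fold of 3.40 at a −log10 q of 2.53 (rank 3672 of 9471). The start of the noncoding gene Gm11520 is within 1 kb of both peaks. In the rest of the Kat7 locus wild type had 7 peaks and KAT8-cKO 2, none of them overlapping. Over all peaks 33.2% of wild-type and 35.6% of KAT8-cKO ones were overlapped.

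Ep300 and Crebbp encode p300 and CBP, paralogous coactivators that are recruited to enhancers and promoters and acetylate all core histones. Ep300 (chromosome 15, 81586209 to 81652077, plus strand) had a wide peak over its start in each list, lying mostly before the start. The wild-type peak was 1052 bp wide, from 839 bp before to 212 bp after the start, with a fold of 3.36 at a −log10 q of 2.79. The KAT8-cKO peak was 1318 bp wide, from 858 bp before to 459 bp after, with a fold of 4.17 at a −log10 q of 5.32. Within its own list Ep300 ranked 5120 of 10246 genes with an end peak in wild type and 1198 of 9471 in KAT8-cKO.

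Crebbp (chromosome 16, 4081334 to 4213957, minus strand) had a pair of end peaks in each list, with the start between them. The upstream peak had a fold of 5.56 at a −log10 q of 9.67 in wild type, 657 to 1005 bp before the start, and a fold of 4.17 at a −log10 q of 4.79 in KAT8-cKO, 755 to 1140 bp before. By −log10 q these were in the top 7.09% and 14.9% of genes with an end peak. The downstream peak was weaker, with a fold of 2.89 at a −log10 q of 1.41 in wild type and 2.93 and 1.47 in KAT8-cKO. Both Crebbp peaks overlapped between the lists.

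Set against all genes of each list, the members differed widely. The median fold of the strongest end peak over all marked genes was 3.42 in wild type and 3.12 in KAT8-cKO, with upper quartiles of 4.19 and 3.67. In wild type Crebbp, Kat6b and Kat7 were above the upper quartile, Kat6a and Ep300 within 0.1 of the median, and Hat1, Kat2b and Kat2a below the lower quartile of 2.90. In KAT8-cKO Crebbp, Ep300 and Kat6b were above the upper quartile, Kat7, Naa60 and Hat1 between the quartiles, and Kat6a below the lower quartile of 2.74. Crebbp and Kat6b were thus above the upper quartile in both lists. Of the 10 wild-type and 11 KAT8-cKO end peaks of members, 3 and 2 were at least 1 kb wide, while 5.84% and 3.55% of all end peaks were. They belonged to Kat6b and Ep300 in both lists and to Kat7 in wild type. These wide peaks were chosen for mention after their widths were seen.

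**Figure D2:**
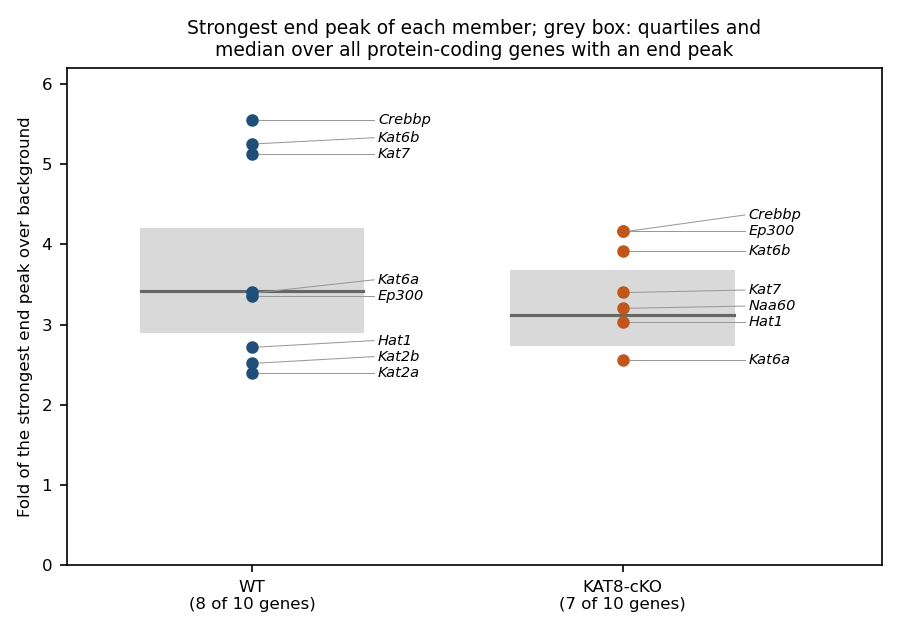
Fold over background of the strongest end peak of each member in the WT list (8 genes) and the KAT8-cKO list (7 genes), each fold from the peak caller's own run. Grey boxes give the quartiles and the line the median over all protein-coding genes with an end peak (3.42 in WT, 3.12 in KAT8-cKO), and Crebbp and Kat6b lie above the box in both lists.

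Inside the genes, away from their own ends, the members had 32 wild-type and 22 KAT8-cKO peaks. Of these 13 and 5 had a q-value under 0.05 (40.6% and 22.7%). Over all body peaks, taken away from the ends of any protein-coding gene, 41.0% and 41.4% did. The highest −log10 q of a member body peak was 4.17 in wild type and 4.07 in KAT8-cKO, both at the Naa60 start described above. Next in wild type came a peak deep inside Kat6b at chr14:21613065-21613494, with a fold of 4.15 at a −log10 q of 3.97, which no KAT8-cKO peak overlapped. Crebbp had 9 body peaks in wild type and 2 in KAT8-cKO, and Kat6b had 5 and 9. Both KAT8-cKO body peaks of Crebbp overlapped wild-type ones, and of the 9 in Kat6b 1 did. Of all KAT8-cKO body peaks 28.0% were overlapped, and of all KAT8-cKO peaks with a q-value of 0.05 or more 21.7%. With so few peaks the counts are not read as a trait of either gene. Those 9 Kat6b peaks had folds from 2.35 to 2.78 and none had a q-value under 0.05. The longest genes, Kat6b (173 kb), Crebbp (133 kb) and Kat2b (106 kb), held 19 of the 32 wild-type and 14 of the 22 KAT8-cKO body peaks. Over the gene and both flanks the members had 64.5 wild-type and 48.1 KAT8-cKO peaks per Mb, against 32.5 and 30.1 per Mb over all protein-coding genes taken the same way and merged.

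The flanks held 29 wild-type and 20 KAT8-cKO peaks, and the strongest of these lay at neighbouring genes. Of the wild-type flank peaks 8 were within 1 kb of an end of another annotated gene, and 6 of these were shared, against 2 of the other 21. In KAT8-cKO 7 were at such ends, 5 of them shared, against 3 of the other 13. Over all peaks the same held: 60.7% and 67.8% were shared at ends of protein-coding genes, and 27.6% and 28.9% outside such genes. The strongest member peak in both lists was a flank peak beyond Kat2b, at an end of the pseudogene Gm31532 and inside the gene Sgo1. Its fold was 5.99 at a −log10 q of 14.5 in wild type and 5.72 and 12.99 in KAT8-cKO. A shared peak at an end of Trap1, beyond Crebbp, had folds of 4.39 and 3.96 and −log10 q values of 6.50 and 5.35. The highest −log10 q in a flank away from any gene end was 2.61 in wild type and 2.13 in KAT8-cKO. A wild-type flank peak beyond Kat7, at an end of the noncoding gene Gm11515, had a fold of 3.87 at a −log10 q of 4.87 and was the strongest member peak by −log10 q without a KAT8-cKO counterpart.

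**Figure D3:**
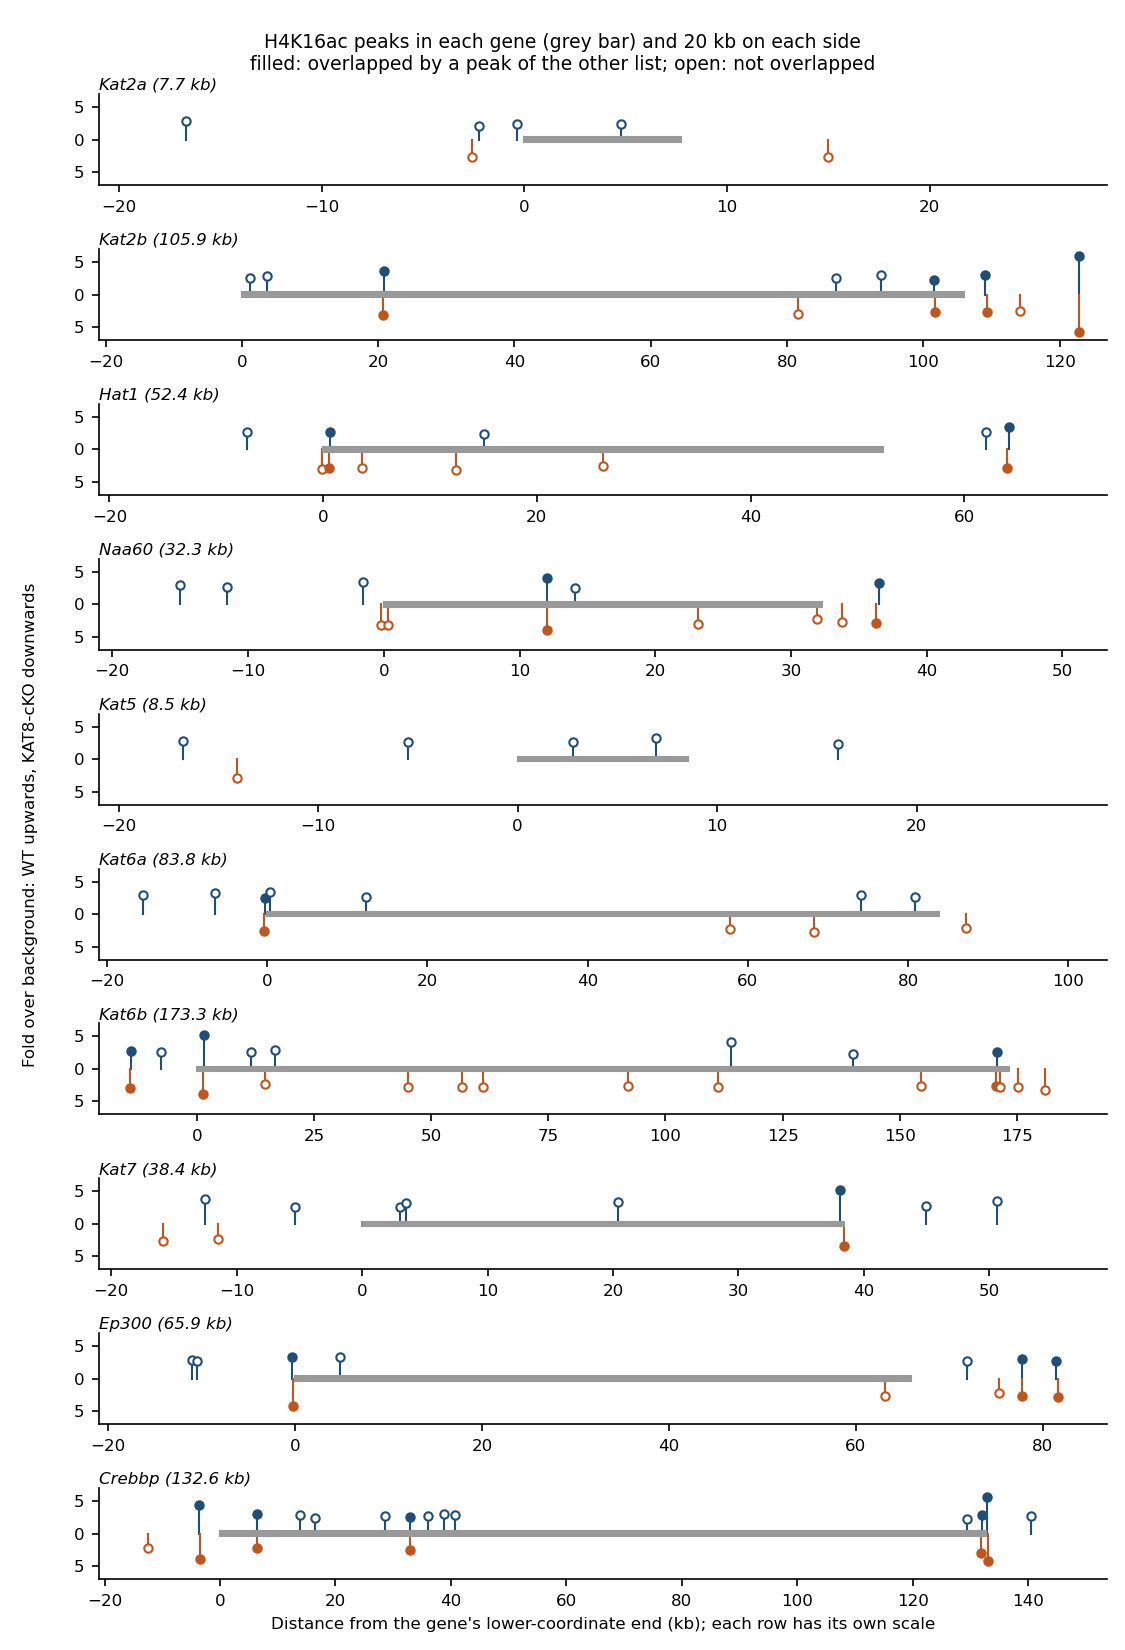
All peaks of each gene (grey bar) and its 20 kb flanks, placed by distance in kb from the gene's lower-coordinate end, with height giving the fold over background upwards for WT and downwards for KAT8-cKO. Filled points are peaks overlapped by the other list, which are 7 of the 10 WT end peaks and 6 of the 32 WT body peaks, and open points are the others.

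Overlap between the lists at these genes was close to that of all peaks. Of the 71 wild-type member peaks 21 were overlapped by a KAT8-cKO peak, 29.6% (95% Wilson interval 20.2 to 41.0), and 33.2% of all wild-type peaks were. Of the 53 KAT8-cKO member peaks 21 were overlapped by a wild-type peak, 39.6% (27.6 to 53.1), and 35.6% of all KAT8-cKO peaks were. At gene ends 7 of 10 wild-type and 7 of 11 KAT8-cKO member peaks were shared, beside 60.7% and 67.8% of all end peaks. In gene bodies 6 of 32 and 6 of 22 were shared, beside 26.2% and 28.0%. In flanks 8 of 29 and 8 of 20 were, beside 27.6% and 28.9% of all peaks outside protein-coding genes and their ends. The classes are not quite alike: all peaks were classed by the ends of any protein-coding gene, member peaks by the member's own ends. The intervals cover counting error over peaks only.

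Sharing followed the strength of the peak, as over the whole lists. All 5 wild-type and all 4 KAT8-cKO member peaks with a −log10 q of at least 5 were shared, beside 94.6% and 96.2% of all such peaks. Between that and a q-value of 0.05, 9 of 26 wild-type and 9 of 19 KAT8-cKO member peaks were shared, beside 42.1% and 46.2%. Weaker than that, 7 of 40 and 8 of 30 were, beside 18.3% and 21.7%. The peaks without a counterpart numbered 50 in wild type, of which 17 had a q-value under 0.05, and 32 in KAT8-cKO, of which 10 did. Their highest −log10 q was 4.87 in wild type and 2.13 in KAT8-cKO. Whether depth, which is unknown here, moves with this was not tested.

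**Figure D4:**
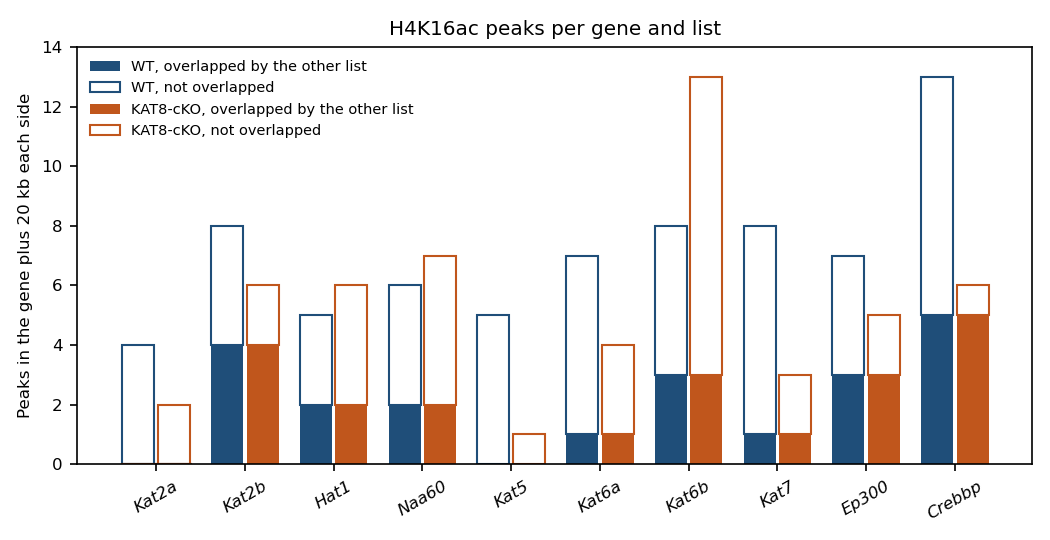
Number of peaks in each gene plus 20 kb on each side, with the filled part of a bar counting peaks overlapped by the other list and the open part those that are not (1 library per list). Kat6b in KAT8-cKO and Crebbp in WT have the most peaks, 13 each, and no peak at Kat2a or Kat5 is overlapped. Of all peaks 33.2% in WT and 35.6% in KAT8-cKO are overlapped.

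Most genes of the subunits that work with these enzymes had an end peak in each list. Of 63 partner genes 48 had an end peak in both lists (76.2%, beside 35.8% of all genes), 6 in wild type only (9.52%, beside 11.1%), 4 in KAT8-cKO only (6.35%, beside 7.52%) and 5 in neither. A gene counted in both lists need not have overlapping peaks, and at some partner genes the strongest peaks of each list did not overlap. Within 1 kb of any RefSeq start, 38 partner genes were marked in both lists, though not every partner has a start given. Many partner end peaks were also within 1 kb of an end of another gene, so they cannot be assigned to the partner alone. Among the partners of Kat2a and Kat2b, the SAGA and ATAC subunits, 20 of 21 were marked in both lists and Wdr5 in neither. By −log10 q their strongest wild-type end peak was at Usp22, the SAGA ubiquitin protease, with 16.8 at a fold of 6.21, and Usp22 had 12.5 at 5.52 in KAT8-cKO. By fold Eny2 (6.83) and Tada1 (6.37) were above it in wild type. The Eny2 peak was also within 1 kb of an end of Nudcd1. Kat2a and Kat2b lacked a KAT8-cKO end peak, as did most protein-coding genes, of which 43.3% had one. Nearly all partner genes of the pair had one. This difference between 2 genes and 21 has no test.

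Of 14 NuA4/TIP60 subunits, the partners of Kat5, both lists marked 10, wild type alone 3 and KAT8-cKO alone 1. Of all protein-coding genes 35.8%, 11.1% and 7.52% fell in these classes. With lists this small, no such count is read as particular to a complex. Ep400, the ATPase of the complex, had the strongest wild-type end peak (fold 7.05, −log10 q 25.6), with 4.64 and 9.66 in KAT8-cKO. Both Ep400 peaks were also within 1 kb of an end of Gm15559. Ruvbl1 (fold 2.80, −log10 q 1.39) and Ruvbl2 (2.51 and 1.60), the paired ATPases of the complex, were marked in wild type only, as was Vps72 (2.80 and 1.26). The Ruvbl2 peak was also within 1 kb of an end of Lhb. Dmap1 was marked in KAT8-cKO only, with a fold of 3.25 at a −log10 q of 2.80. No peak of the other list overlapped any of these 4, which follows almost wholly from how the class is defined.

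Of 9 partners of Kat6a, Kat6b and Kat7, 5 were marked in both lists, as were 35.8% of all genes. Ing4 and Jade3 were marked in KAT8-cKO only (7.52% of all genes), and Brd1 and Jade1 in neither (45.7%). Brpf1, a scaffold of the MOZ and MORF complexes, led these 9 partners with a fold of 5.91 at a −log10 q of 16.7 in wild type. In KAT8-cKO it had 5.80 and 13.99. Its peaks were also within 1 kb of an end of Cpne9. The end peaks of Ing4 (2.44 and 0.804) and Jade3 (2.56 and 0.663) did not reach a q-value of 0.05. Jade1 had peaks of both lists within 1 kb of a RefSeq start, so its class rests on the annotated ends. Ing4, Jade3, Brd1, Jade1, Wdr5 and Vps72 here, and Rbbp7, Ncoa1, Ncoa3, Cited1, Cited4, Naa38 and Naa20 below, as well as Eny2 and Tada1, were named after their values were seen.

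Both partners of Hat1, the histone chaperones Rbbp4 and Rbbp7, were marked in both lists, as were 35.8% of all genes. Rbbp4 had the higher −log10 q (6.88 in wild type and 1.85 in KAT8-cKO, at folds of 3.75 and 2.97) and Rbbp7 the higher fold (4.15 and 2.99, at 3.97 and 1.41). The Rbbp4 peaks were also within 1 kb of an end of Zbtb8os. Of 6 coactivators bound by p300 and CBP, both lists marked Ncoa1, Ncoa2 and Ncoa3, beside 35.8% of all genes. Cited2 was marked in wild type only (11.1% of all genes), Cited4 in KAT8-cKO only (7.52%) and Cited1 in neither (45.7%). The Ncoa3 peaks were also within 1 kb of an end of LOC115489489. Cited2, a competitor for a binding domain of p300 and CBP, had a fold of 3.90 at a −log10 q of 3.55 in wild type. The Cited4 peak was weak (2.49 and 0.663). Both lists marked 8 of 11 other N-terminal acetyltransferase genes, beside 35.8% of all genes. Naa15 (fold 3.08, −log10 q 1.67) and Naa38 (2.38 and 0.774) were marked in wild type only (11.1% of all genes), and Naa20 in neither (45.7%). Naa20 had a wild-type peak within 1 kb of a RefSeq start, so its class rests on the annotated ends. The strongest of the 11 was Naa16, an auxiliary subunit of the NatA complex, with a fold of 6.37 at a −log10 q of 13.4 in wild type. In KAT8-cKO it had 3.04 and 1.82. The Naa15 peak was also within 1 kb of an end of LOC108168868, and the Naa38 peak of ends of Cyb5d1 and Tmem88.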

How the data were processed

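Each of 2 libraries, 1 per genotype, has 1 deposited peak list in the 10-column narrowPeak layout; the genotype label set the group. Per the submitters' processing notes the build was mm10 and Bowtie 0.12.8, MACS2 2.2.7.1 and DiffBind were used, with no role stated; peak calling settings, a control library and duplicate handling are not stated in the sources used. The deposited columns used were the fold over background (a ratio), the −log10 of the p-value and of the q-value, the summit offset and the peak positions. The deposited score, which equals −log10 p times 10 rounded down in 99.99% of peaks, was not used.

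Peaks were classed for each gene as end (within 1 kb of an annotated end), else body, else flank (within 20 kb), with RefSeq positions of GRCm38.p6. A peak was shared if a peak of the other list overlapped it by at least 1 bp. The same counts over all 21883 protein-coding genes and over all peaks gave the backgrounds. For the classes of all peaks, end meant within 1 kb of an end of any protein-coding gene, and body meant elsewhere inside such a gene. The remaining peaks were set beside the flank class. Member peaks were classed by the member's own ends only, so a member body or flank peak can lie at an end of a neighbour. Start sites came from a RefSeq promoter table, which held 9 of the 10 members. The overlap code was tested on simulated data against a direct search. Python 3.11.15, pandas 2.3.3 and numpy 2.4.6 were used. With 1 library per group there is no p-value between genotypes and no SD.

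The members and the partner and marker lists were chosen with earlier results of these data known. All members are named; partner genes are named if marked in 1 list with a q-value under 0.05, or if they have the strongest wild-type end peak of their list by −log10 q, and others are said to be named after their values were seen. Alternatives were q-value thresholds, the strongest 20000 peaks of each list, other windows and flanks, stricter overlap, and start sites only. Depth is unknown, since read totals are not given.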

Additional observations from a re-analysis of the deposited data

How the results depend on the processing

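No paired analysis was possible because each genotype has 1 library, and for the same reason no replicate could be left out. Of 90 recomputed counts and shares 56 stayed within 1.5 times the reported count or within the interval of the share, and 34 did not. With peaks of q under 0.05, member genes with an end peak numbered 5 in wild type (8 with all peaks) and partner genes 13 in wild type only and 1 in KAT8-cKO only. Member peaks then numbered 6 end, 13 body and 12 flank in wild type, and 5 body and 9 flank in KAT8-cKO. At a −log10 q of at least 5, member genes with an end peak numbered 3 in wild type, 2 in KAT8-cKO and 1 in both, and partner genes in both lists 11. Member peaks then numbered 3 end, 0 body and 2 flank in wild type and 2 end, 0 body and 2 flank in KAT8-cKO, and 60% and 75% of them were overlapped by a peak of the other list that also reached that value. With the strongest 20000 peaks of each list, member genes numbered 5 in wild type, partner genes 12 in wild type only and 1 in KAT8-cKO only, and member peaks 5 end, 9 body and 9 flank in wild type and 4 body and 6 flank in KAT8-cKO. End windows of 3 kb gave 19 wild-type and 17 KAT8-cKO end peaks, and the strongest wild-type end peak of Kat2b became one with a fold of 3.04. Flanks of 5 kb held 5 wild-type and 7 KAT8-cKO peaks. An overlap of at least 50% of both peaks left 19.7% of wild-type and 26.4% of KAT8-cKO member peaks shared. By construction these alternatives keep fewer peaks, widen or narrow a window, or ask for more overlap. Member genes marked, 8 in wild type and 7 in KAT8-cKO, were 5 and 6 at q under 0.05 and with the strongest 20000 peaks, and 6 and 6 with 500 bp windows or the start end only. With the start end only, Kat6a dropped out of both counts because its strand is not given, whatever its peaks. In windows of 500 bp Kat2b lost its wild-type end peak and Kat6b its end peak in both lists.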
